A study of Homo sapiens with 6 samples.

Results

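The MAP kinase cascade genes described here are the kinases of the successive tiers of MAP kinase signalling, their scaffolds and the dual-specificity phosphatases that switch them off, as read from the splice junctions of cells depleted of the splicing regulator SFSWAP. Members were taken by gene symbol (MAP2K, MAP3K, MAP4K, MAPK, MAPKAP and DUSP followed by a number or name) and by depth, with a mean of at least 20 junction reads per library. This gave 85 of 21158 introns and 571 of 153168 exon events, in 54 of 13390 genes. The introns lay in 29 of these genes and the exon events, which covered 477 exons (forms with different ends counted separately), in 53. The depth limit fell between a MAPK12 intron with 20.2 reads and a MAPK15 intron with 19.8 reads, and among exons between a MAP3K10 event with 20 reads and a MAP3K5 event with 19.8 reads.

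The cells were HEK293A-TOA, a line of human embryonic kidney origin, and received a non-target siRNA (siNT) or a mixture of siRNAs against SFSWAP (siSFSWAP), at 40 nM for 5 days and with no other treatment. Each group held 3 biological replicates, called a, b and c. The treatment text of every sample names SFSWAP siRNA, so the groups rest on the sample titles. Polyadenylated RNA was sequenced from 1 end.

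In a MAP kinase cascade, a MAP3K phosphorylates a MAP2K, which phosphorylates a MAP kinase on a threonine and a tyrosine, and MAP4Ks lie upstream of the MAP3Ks of the stress pathways. The ERK branch answers mostly to growth factors, and the JNK and p38 branches to stress and cytokines. MAP kinase phosphatases (MKPs, the DUSPs with a MAP kinase binding domain) remove both phosphates, and several of them are themselves transcribed in response to the pathway. Atypical DUSPs lack that domain and many act on other substrates, such as RNA in the case of DUSP11. Alternative splicing is long known in the cascade, for example in the exons of MAP3K7 and the JNKs.

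SFSWAP itself was read at 79.7, 86.5 and 80.2 CPM (counts of junction reads of the exon table, scaled to the same total in every library) in siNT a, b and c and at 34.7, 34.6 and 21.3 CPM in siSFSWAP a, b and c. Its level in siSFSWAP was 36.8% of that in siNT (log2 change −1.46 ± 0.16 SE, adjusted p = 0.000351). Library siNT a stood apart. Its log2 levels differed from those of siNT b and c with an SD of 0.358 and 0.383, more than siNT b from siNT c (0.252), and least from siSFSWAP a (0.326). Libraries held 2767079 to 7465949 junction reads in the intron table and 19515010 to 55274283 in the exon table, most in siNT a. Of 9 listed HEK293 markers 4 had exon events and were read (VIM, KRT8, KRT18 and CDH2), whereas PAX2, LHX1, NEFM, NEFL and INA had none. Of 5 fibroblast markers only COL1A1 had exon events, with at most 0.514 CPM, and of 4 epithelial markers only ESRP1, with at most 0.154 CPM. Of 5 blood cell markers 0 had exon events. A gene without exon events could not be read here, so these levels do not establish the identity of the cells. In such bulk RNA, fewer cells of a kind and less RNA per cell cannot be told apart.

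The splice sites that the results below turn on are shown first, from the GRCh38 sequence, 5′ to 3′ on the gene's strand. Each run holds 20 intron bases in lower case and 10 exon bases in capitals. MAPK12 exon 5 has donors 147 nt apart, MAP3K7 exon 16 has acceptors 7 nt apart, MAPK8IP3 exon 3 has alternative donors, of which the outer begins with gc, and DUSP8 intron 6 is a short coding intron.
MAPK12 exon 5 inner donor, chr22:50256915-50256944, minus strand: CATCCACAGAgtgagtcccggtggagaagc
MAPK12 exon 5 outer donor, chr22:50256768-50256797, minus strand: GGGTGCCCAGgtaccttggtctgcccttga
MAPK12 exon 6 acceptor, chr22:50256637-50256666, minus strand: cacctttcctctgcccccagGACCTGAAGC
MAP3K7 exon 16 outer acceptor, chr6:90518553-90518582, minus strand: acattcctgattattttcagCCTCTAGCAC
MAP3K7 exon 16 inner acceptor, chr6:90518546-90518575, minus strand: tgattattttcagcctctagCACCGTGCCC
MAPK8IP3 exon 3 inner donor, chr16:1729199-1729228, plus strand: GCACACAGAGgtgggcgcccagaggcaagc
MAPK8IP3 exon 3 outer donor, chr16:1729292-1729321, plus strand: TTCTTCCCTGgcatgtcccttttctagcat
DUSP8 intron 6 donor, chr11:1557774-1557803, minus strand: ACGCCTACAGgtaccaccttccccagtcgc
DUSP8 intron 6 acceptor, chr11:1557565-1557594, minus strand: ctgagcctcctcccccgcagGTTCGTGAAG

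Across the cascade, 3 of 61 tested introns and 9 of 266 tested exon events passed the test with a change of 20 percentage points or more. The inclusion level is the share of an event's length-corrected junction reads that keep the intron or exon. For a form of an exon it sets that form against the skipping junction only, so levels of different forms are not shares of the transcripts. An event was called where its adjusted p was at most 0.05 and its mean level moved by at least 20 points. Testing needed at least 5 reads of each form. Of the 85 introns 61 could be tested, in 26 genes, and the other 24 had too few spliced reads. Of the 571 exon events 266 could be tested, in 44 genes, and of the other 305 the rarer form was skipping in 265. Retention fell in 3 of 61 introns and rose in 0, against 1.56% lower and 0.128% higher among all tested introns. Exon inclusion rose in 4 of 266 events and fell in 5, against 1.49% higher and 0.653% lower among all tested exon events. These exon calls are not independent. The 4 rises share a skipping junction of MAPK12, and the 5 falls, in MAP3K7, MAP3K8 and MAPK8IP3, include forms of the same exon. The groups did not overlap in 15 introns with lower retention and 2 with higher retention (all introns, 15.3% and 6.02%), and in 48 exon events with higher and 26 with lower inclusion (all exon events, 14.2% and 9.03%). The median change was −2.09 points over the 61 introns and −0.52 points over all 10155 tested, and 0.257 points over the 266 exon events and 0.295 over all 48100. Introns of the members were shorter and richer in G and C, with medians of 130 nt and 65.2% against 161 nt and 55.4% for all tested. As a description across introns with 5 to 95% inclusion in siNT, which share libraries, GC content and change had a Spearman correlation of −0.186 over 45 member introns and −0.357 over all 5953, and for exons of 0.480 over 106 members and 0.374 over all 17291.

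**Figure D1:**
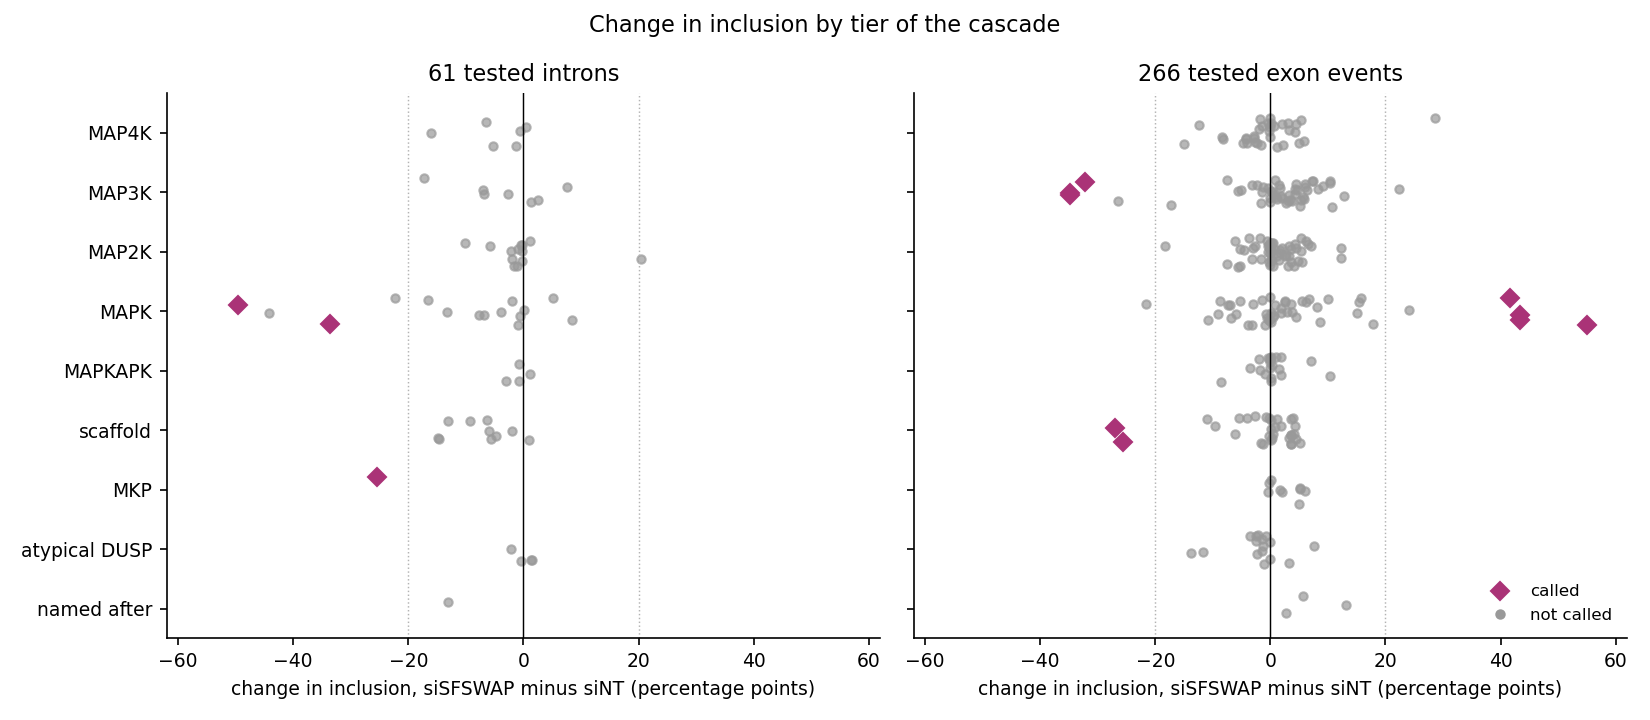
Change in inclusion (siSFSWAP minus siNT, percentage points, x axis) of every tested member intron (left, 61) and exon event (right, 266) by tier of the cascade (y axis), with called events as purple diamonds and dotted lines at 20 points in each direction. The called introns lie on the left, in the MAPK and MKP rows, and the called exons lie on the right in the MAPK row and on the left in the MAP3K and scaffold rows.

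Among the MAP kinases, MAPK12 held all 6 calls (2 introns and 4 exon events). MAPK12 encodes p38γ, a p38 kinase best known from skeletal muscle. Exons 4 and 5, of 112 and 30 nt and together 142 nt (a length not divisible by 3), lie in the kinase coding sequence on chromosome 22. The junction that joins exon 3 to exon 6, and so skips both, was read 24, 21 and 11 times in siNT a, b and c and 3, 2 and 6 times in siSFSWAP a, b and c. All counts in siSFSWAP lay below all counts in siNT, whereas the reads that include the long form of exon 5 (below) were 25, 11 and 10 in siNT and 45, 44 and 30 in siSFSWAP.

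Inclusion of MAPK12 exon 4 (chr22:50257082-50257193) was 55.1%, 28.8% and 40.5% in siNT and 86.0%, 88.9% and 74.5% in siSFSWAP. The means were 41.5% ± 13.2 and 83.1% ± 7.64 (SD, n = 3), a rise of 41.6 points (adjusted p = 0.00512). Exon 5 (chr22:50256935-50256964) was included at 65.0%, 33.8% and 29.5% in siNT and 89.1%, 93.1% and 76.2% in siSFSWAP, a rise of 43.3 points (adjusted p = 0.00809). For both exons the lowest siSFSWAP library exceeded the highest siNT library, which was siNT a.

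A longer form of exon 5 that uses the outer donor shown above (177 nt, chr22:50256788-50256964, listed only in transcripts without a coding sequence) had the largest change of the 266 tested exon events. It was included at 34.2%, 20.8% and 31.2% in siNT and 88.2%, 91.7% and 71.4% in siSFSWAP, so that the mean rose from 28.8% ± 7.08 to 83.8% ± 10.8 (SD, n = 3, adjusted p = 2.67e-05). A merged form that runs from exon 4 through intron 4 and exon 5 (329 nt, not in GENCODE 44) rose by 43.4 points (adjusted p = 0.0028). The 4 events share the skipping reads given above and are not independent. Each level sets its own form against those skipping reads, so a high level does not make that form the main one. For the long form of exon 5, almost all inclusion reads come from the junction of the outer donor with exon 6. The length correction also allows for a junction with exon 3, so the levels of this form depend on how the event is defined. Without siNT b, siSFSWAP a or siSFSWAP b the calls of exons 4 and 5 were lost and without siSFSWAP a that of the merged form, and the 4 changes stayed between 35.3 and 61.2 points whichever library was left out. The long form of exon 5 was called in all 6 cases.

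**Figure D2:**
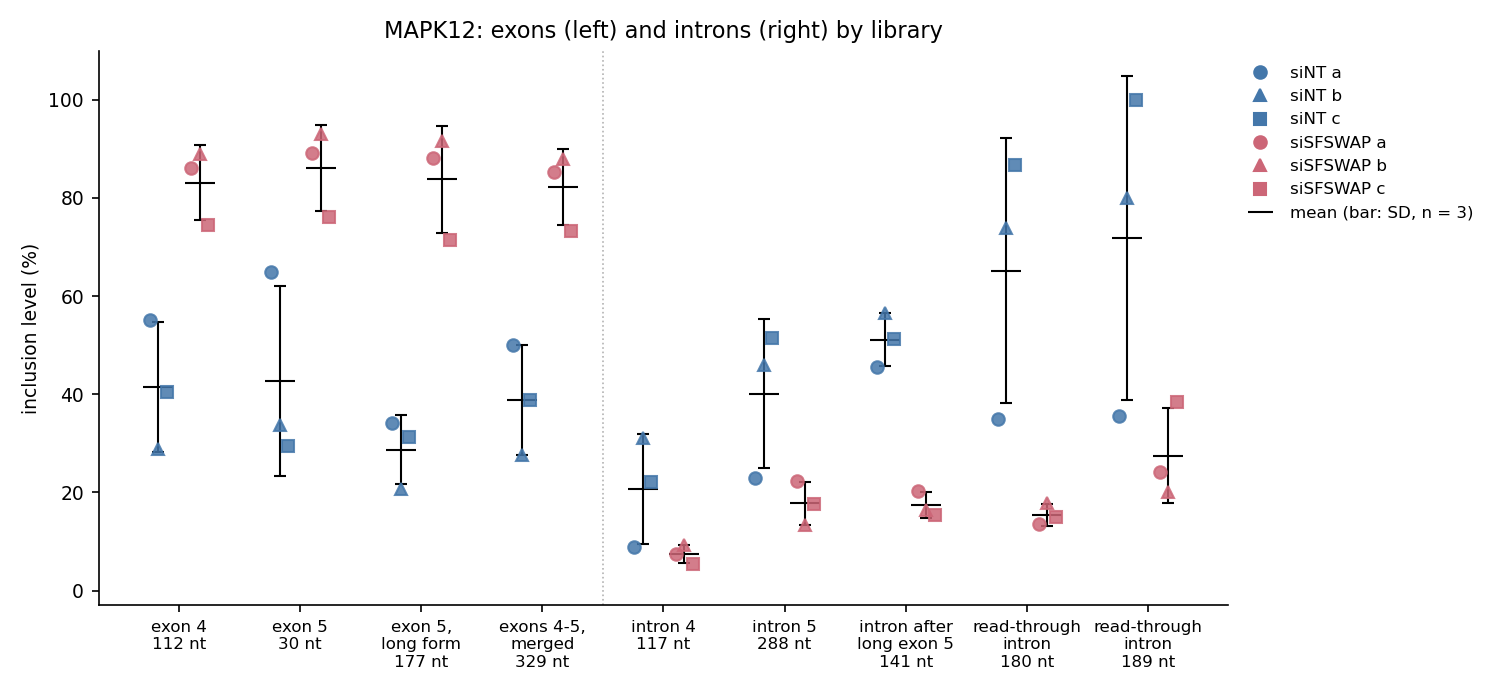
Inclusion level (%, y axis) of 4 MAPK12 exon events (left of the dotted line) and 5 MAPK12 introns (right) in each library, with siNT in blue, siSFSWAP in red, and black bars for the mean and SD of 3 libraries. The exon levels lie below 66% in siNT and above 71% in siSFSWAP, and the intron after the long exon 5 falls from above 45% to below 21%.

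The introns beside these exons were read as spliced more often. The 141-nt intron between the outer donor of exon 5 and exon 6 (chr22:50256647-50256787) was retained at 45.7%, 56.5% and 51.2% in siNT and at 20.4%, 16.5% and 15.5% in siSFSWAP, a fall of the mean from 51.1% ± 5.44 to 17.5% ± 2.56 (SD, n = 3, adjusted p = 0.00715). Its spliced reads were 3.35, 3.13 and 3.54 RPM (junction reads of the intron table, scaled in the same way) in siNT and 10.1, 15.5 and 9.56 RPM in siSFSWAP (log2 change 1.64 ± 0.29 SE, adjusted p = 0.00122), with no overlap. Its inclusion reads were 5.63, 8.13 and 7.43 RPM in siNT and 5.17, 6.14 and 3.51 RPM in siSFSWAP (log2 change −0.49 ± 0.32 SE, adjusted p = 0.448). Its spliced reads and the inclusion reads of the long exon 5 differed by at most 1 read in every library, since both count the junction from the outer donor to exon 6, and the events are not independent. The call was lost without siNT b or any of the 3 siSFSWAP libraries, with changes of −36.4 to −31.0 points in the 6 cases.

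Intron 5 in the form annotated as coding (288 nt) was retained at 40.1% ± 15.2 in siNT and 17.8% ± 4.4 in siSFSWAP (SD, n = 3, adjusted p = 0.219) and intron 4 (117 nt) at 20.7% ± 11.2 and 7.44% ± 1.91 (adjusted p = 0.279), neither past the test. Spliced reads rose at both, with log2 changes of 1.14 ± 0.29 SE (adjusted p = 0.00916) and 0.88 ± 0.24 SE (adjusted p = 0.0147). In siNT a, intron 5 was retained at 22.9% and intron 4 at 8.86%, close to the siSFSWAP libraries. Without siNT a, 8 member introns were called lower in place of 3, whereas 0 were called without siNT b, or any of the 3 siSFSWAP libraries, and 1 without siNT c.

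The other called MAPK12 intron (180 nt, chr22:50249455-50249634) is uncertain as a MAPK12 value. It belongs to a single GENCODE read-through transcript that continues past the usual end of MAPK12, and it overlaps an exon of HDAC10, so that reads of HDAC10 could not be separated. Its retention was 34.9%, 73.9% and 86.7% in siNT and 13.5%, 17.9% and 15% in siSFSWAP (adjusted p = 0.0355), from a mean of 21.7 reads per library, and the call was lost without any library other than siNT a, with changes of −64.8 to −38.9 points. A further intron of this transcript (189 nt) was at 71.8% ± 33 and 27.5% ± 9.69 (SD, n = 3, adjusted p = 0.285).

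MAPK3, which encodes ERK1, had exon events with the same direction of change as those of MAPK12, none of them called. Its coding exon 4 (117 nt) was included at 93.6%, 74.7% and 72.8% in siNT and at 96.5%, 93.6% and 96.4% in siSFSWAP (adjusted p = 0.0533). A shorter form of that exon with the same acceptor (65 nt, in 1 transcript and there in the 5′ UTR) was at 87.4%, 56.8% and 56.1% in siNT and 93.2%, 87.9% and 91.7% in siSFSWAP, a difference of 24.1 points just outside the test (adjusted p = 0.0502). Exon 6 (132 nt) rose from 91.9% ± 2.44 to 98.1% ± 0.891 (SD, n = 3, adjusted p = 0.0294), by too few points for a call. Here too siNT a lay nearer to siSFSWAP for exon 4, and without it the difference for the 65-nt form was 34.4 points (adjusted p = 0.000169), against 18.8 points without siNT c (adjusted p = 0.225).

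JNK and p38α transcripts moved less. MAPK9, the JNK2 gene, included an alternative 241-nt exon at 13.3%, 11.8% and 13.9% in siNT and 23.4%, 26.3% and 19.2% in siSFSWAP, a rise of 9.97 points (adjusted p = 0.0499). The 3 tested exon events of MAPK8, the JNK1 gene, had adjusted p-values of at least 0.404, and the 3 of MAPK14, the p38α gene, of at least 0.396. MAPK10, the neuronal JNK3 gene, was read at 0.0974 to 0.214 CPM and was not tested.

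Among the MAP3Ks, 3 of 51 tested exon events were called, all lower and in MAP3K7 and MAP3K8. MAP3K7 encodes TAK1, which relays cytokine and stress signals to JNK, p38 and NF-κB. Its coding exon 16 (116 nt, chr6:90518447-90518562) was included at 94.4%, 95.4% and 91.5% in siNT and at 84.5%, 70.6% and 74.6% in siSFSWAP. The mean fell from 93.8% ± 2.00 to 76.5% ± 7.15 (SD, n = 3), a change of −17.2 points (adjusted p = 0.000498), without overlap. The junction that skips exon 16 was read 17, 5 and 8 times in siNT and 23, 29 and 25 times in siSFSWAP. The shorter form that starts at the inner acceptor (109 nt, not in GENCODE 44) fell from 85.9% ± 3.04 to 51.0% ± 13.2 (SD, n = 3, adjusted p = 0.000182) and was called whichever library was left out. Both forms share these skipping reads, and each level sets its own form against them, so the levels do not give the share of each form. Exon 12 of MAP3K7 (81 nt), another alternatively used exon, was at 2.15% ± 1.67 in siNT and 4.18% ± 0.734 in siSFSWAP (adjusted p = 0.741).

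MAP3K7 intron 8 (1499 nt) was among the few member introns with more retention in every siSFSWAP library, at 3.92%, 8.33% and 6.80% in siNT and 16.8%, 13.7% and 11.3% in siSFSWAP (adjusted p = 0.0883). The spliced reads summed over MAP3K7 were 81.3 ± 13.4 CPM in siNT and 77.4 ± 6.86 CPM in siSFSWAP (adjusted p = 0.726).

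MAP3K8 encodes TPL2, the MAP3K that links toll-like receptor signals to ERK. Its exon 2, in the 5′ UTR (231 nt, chr10:30437176-30437406), was included at 65.2%, 69.2% and 80.5% in siNT and 41.8%, 34.5% and 34.0% in siSFSWAP. The mean fell from 71.6% ± 7.92 to 36.8% ± 4.38 (SD, n = 3, adjusted p = 0.0028), and every siSFSWAP library lay below every siNT library. A form of the exon that begins 41 nt earlier (272 nt, not in GENCODE 44) fell by 32.2 points (adjusted p = 0.0111). The call of the annotated form was lost without siSFSWAP c and that of the longer form without siNT c, siSFSWAP a or siSFSWAP c, with changes of −38.1 to −25.6 points in the 6 cases. A further 195-nt exon, of MAP3K10, that GENCODE 44 does not list, in a kinase upstream of JNK, rose from 1.70% ± 2.06 to 14.5% ± 5.68 (SD, n = 3, adjusted p = 0.00332).

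No event of the MAP2K, MAP4K or MAPKAPK tiers was called among 13, 6 and 4 tested introns and 54, 34 and 20 tested exon events. The exon with the largest difference at 50 reads or more in the MAP2K tier was a MAP2K7 form of 103 nt (75.6% ± 17.7 in siNT and 87.9% ± 9.74 in siSFSWAP, adjusted p = 0.457). MAP2K7 encodes MKK7, an activator of JNK. In the MAP4K tier it was the 162-nt exon 16 of MAP4K4 (67.8% ± 3.66 and 52.8% ± 11.8, adjusted p = 0.302), and in the MAPKAPK tier a 90-nt exon of MAPKAPK5 (83.7% ± 11.7 and 80.1% ± 10.3, adjusted p = 0.81). The corresponding introns were those of MAP2K7 (3.39% ± 1.16 and 1.28% ± 1.17, adjusted p = 0.481), MAP4K5 (5.25% ± 3.16 and 4.58% ± 1.73, adjusted p = 0.969) and MAPKAPK3 (5.20% ± 3.52 and 2.23% ± 0.868, adjusted p = 0.693). In the MAP3K tier the largest intron difference was that of MAP3K11 intron 3, at 15.2%, 49.3% and 41.8% in siNT and 23.4%, 12.7% and 18.1% in siSFSWAP (adjusted p = 0.458). The MAP3K11 groups overlapped through siNT a, and without siNT a its change was −27.4 points (adjusted p = 0.00227), whereas without siNT b it was −10.4 points (adjusted p = 0.79).

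Among the scaffolds, MAPK8IP3 (JIP3), which joins JNK kinases to kinesin transport, had an exon and an intron with lower inclusion. Its coding exon 3 (71 nt) was included at 100%, 98.3% and 100% in siNT and at 94.8%, 86.2% and 88.5% in siSFSWAP (adjusted p = 0.011). The form with the outer gc donor (164 nt, chr16:1729138-1729301) fell from 97.6% ± 4.12 to 70.6% ± 8.52 (SD, n = 3, adjusted p = 0.0102), and another form of 85 nt that GENCODE 44 does not list fell by 25.6 points (adjusted p = 0.011). All 3 share a skipping junction that was read 0, 1 and 0 times in siNT and 5, 10 and 8 times in siSFSWAP. Each level sets its own form against that junction and does not give the share of the form. The calls of the 164-nt and 85-nt forms were lost without siNT a, siSFSWAP b or siSFSWAP c, with changes of −32.0 to −23.0 points. A 12-nt microexon of the same gene was at 92.5% ± 6.04 in siNT and 81.5% ± 5.66 in siSFSWAP (adjusted p = 0.108).

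Retention of the 69-nt intron 27 of MAPK8IP3 was 9.77%, 16.6% and 27.1% in siNT and 2.79%, 4.76% and 1.84% in siSFSWAP, a change of −14.7 points (adjusted p = 0.035) that was too small for a call. Its inclusion reads fell (log2 change −1.71 ± 0.45 SE, adjusted p = 0.0261). Of the 10 scaffold introns tested, 9 had a negative difference, against 6212 of all 10155, and in 6 the groups did not overlap with lower retention, against 15.3% of all. Their median length was 104.5 nt at 68.3% GC, against 161 nt and 55.4% GC for all tested introns.

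Among the phosphatases, the intron of DUSP8 was the only one of the MKP tier and it fell. DUSP8 encodes an MKP with a preference for JNK and p38. Its intron 6 (219 nt, chr11:1557575-1557793), the last of the coding sequence, was retained at 30.8%, 41.9% and 52.6% in siNT and at 20%, 10.4% and 18.5% in siSFSWAP. The mean fell from 41.8% ± 10.9 to 16.3% ± 5.14 (SD, n = 3, adjusted p = 0.036), with no overlap. Inclusion reads of the intron fell, from 10.98, 27.5 and 36.1 RPM in siNT to 2.92, 2.53 and 6.37 RPM in siSFSWAP (log2 change −2.46 ± 0.36 SE, adjusted p = 0.000142). Spliced reads of the intron were 12.3, 19.1 and 16.3 RPM in siNT and 5.84, 10.8 and 14.02 RPM in siSFSWAP (log2 change −0.67 ± 0.28 SE, adjusted p = 0.0993). The call was lost without any library other than siNT a, with changes of −30.9 to −20.04 points in the 6 cases, and GENCODE lists 2 pseudogenes named after DUSP8.

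The atypical phosphatase DUSP11, which acts on RNA 5′ triphosphates, skipped its 47-nt coding exon 6 more often. Inclusion was 100%, 98.1% and 100% in siNT and 94.997%, 82.1% and 79.7% in siSFSWAP, a change of −13.8 points (adjusted p = 0.00485) that was too small for a call. DUSP22 intron 7, the largest difference of an atypical DUSP intron at 50 reads or more, was at 84.0% ± 5.31 in siNT and 81.9% ± 8.34 in siSFSWAP (adjusted p = 0.976). The largest difference of an MKP exon at that depth was in DUSP8 (5.10 points, adjusted p = 0.389). MAPKAPK5-AS1, an antisense gene that carries a member's symbol, had an intron at 73.0% ± 6.5 and 59.8% ± 7.58 (adjusted p = 0.313) and an exon with a difference of 5.68 points (adjusted p = 0.67).

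**Figure D3:**
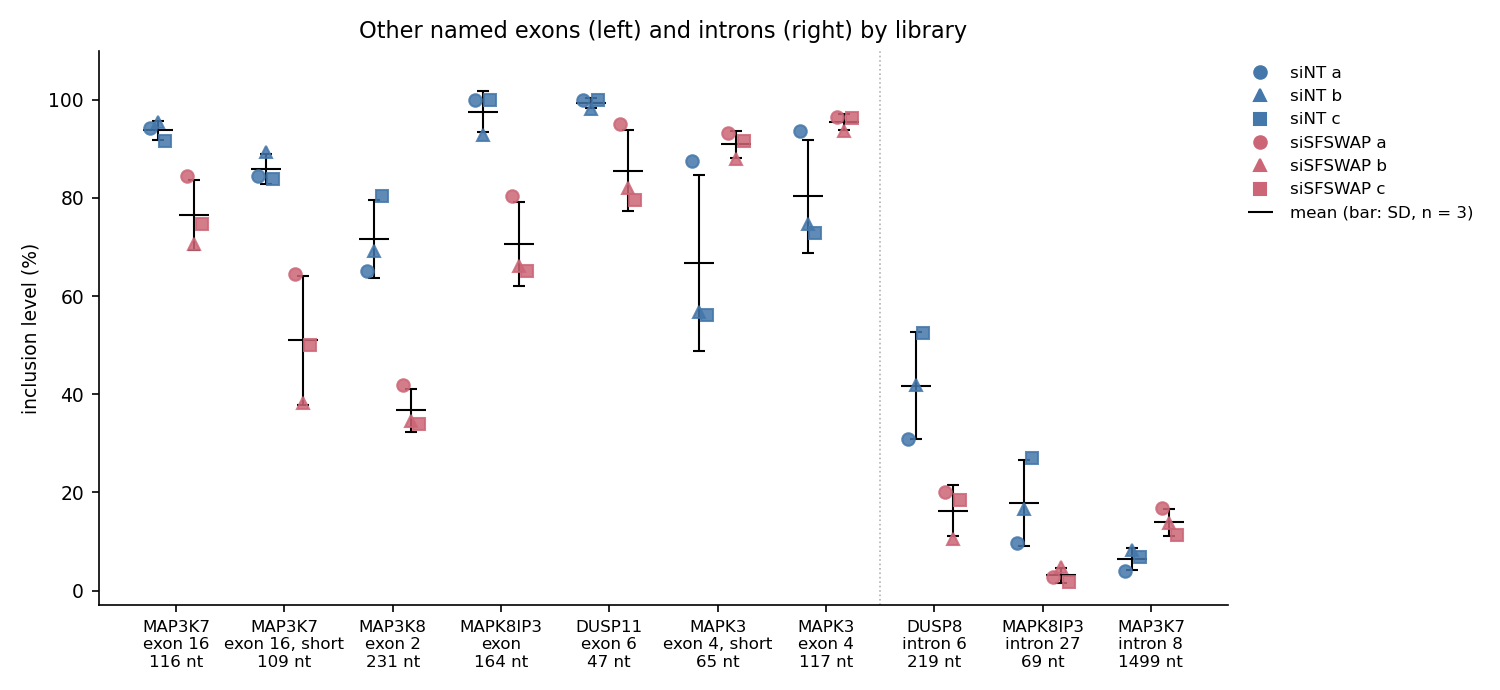
Inclusion level (%, y axis) of named exons of MAP3K7, MAP3K8, MAPK8IP3, DUSP11 and MAPK3 (left of the dotted line) and introns of DUSP8, MAPK8IP3 and MAP3K7 (right) in each library, with siNT in blue, siSFSWAP in red, and black bars for the mean and SD of 3 libraries. The MAP3K7, MAP3K8, MAPK8IP3 and DUSP11 exons lie lower in siSFSWAP, the MAPK3 exons lie higher, and the MAP3K7 intron lies opposite to the other introns.

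Split by form, more member introns passed the test in their spliced reads than in their inclusion reads. Spliced reads rose for 10 of 61 introns and fell for 3 (all tested introns, 13.4% and 9.36%, against 16.4% and 4.92% of members), and inclusion reads fell for 3 and rose for 0 (all tested introns, 4.44% and 0.886%). The 10 rises were 6 MAPK12 introns, 2 MAPK8IP2 introns, a MAP4K2 intron and MAPK3 intron 7, with log2 changes of 0.55 to 2.06. The top of that range (1.902 and 2.06) came from the MAPK12 read-through introns, which are uncertain as MAPK12 values. The spliced reads of MAPK12, MAPK8IP2 and MAPK3 also rose when summed over the gene's exons, a sum that can itself move with splicing. At MAPK3 intron 7 retention was 1.36% ± 0.835 in siNT and 1.43% ± 0.787 in siSFSWAP. The 3 falls were introns 8 and 9 of MAP2K1 (−0.64 and −0.63) and intron 2 of DUSP12 (−0.74), whose spliced reads fell over the whole gene. The MAP2K1 introns overlap a gene on the other strand. Without known strandedness, reads of that gene could not be separated from the inclusion reads of these introns. The inclusion reads that fell were those of DUSP8, of MAPK8IP3 intron 27 and of MAP4K2 intron 31, which went from 0.804, 2.19 and 3.89 RPM in siNT to 0.449, 0.361 and 0 RPM in siSFSWAP (log2 change −1.74 ± 0.51 SE, adjusted p = 0.0442). The median log2 change of the inclusion reads of all tested introns was −0.14, and median-of-ratios scaling moved it to −0.01.

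Summed over the introns of a tier, spliced reads of the MAPK tier were 145 ± 24.7 RPM in siNT and 214 ± 17.7 in siSFSWAP, and inclusion reads 184 ± 29.8 and 155 ± 20.9 (SD, n = 3). Most of the 24 introns in these MAPK sums are MAPK12 introns, overlapping ones and the read-through introns included, so the sums rest largely on MAPK12. Outside it, the spliced reads of MAPK3 intron 7 went from 32.3 to 47.1 RPM. In the scaffold tier spliced reads were 99.6 ± 8.33 and 135 ± 8.24 RPM and inclusion reads 40.3 ± 14.6 and 28.9 ± 10.6. The MAP2K tier, with the most reads, had 567 ± 21.6 and 515 ± 29.0 spliced and 233 ± 28.3 and 210 ± 25.1 inclusion reads in RPM. The atypical DUSP sums were at 68.3% of siNT for inclusion reads and 67.5% for spliced reads. That inclusion sum rests on DUSP3, whose overlapping introns count the same reads (74.2 ± 11.9 RPM in siNT and 44.5 ± 3.38 in siSFSWAP, not tested). For the introns of DUSP11, DUSP12, DUSP18 and DUSP22 the mean inclusion reads were 1.01, 1.08, 4.88 and 19.5 RPM in siNT and 1.15, 1.25, 7.96 and 20.03 RPM in siSFSWAP. The MAP4K tier was at 78.7% and 109%, the MAP3K tier at 79.0% and 106%, and the MAPKAPK tier at 81.2% and 98.4%. Introns that overlap within a gene share reads in these sums, which were not tested.

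**Figure D4:**
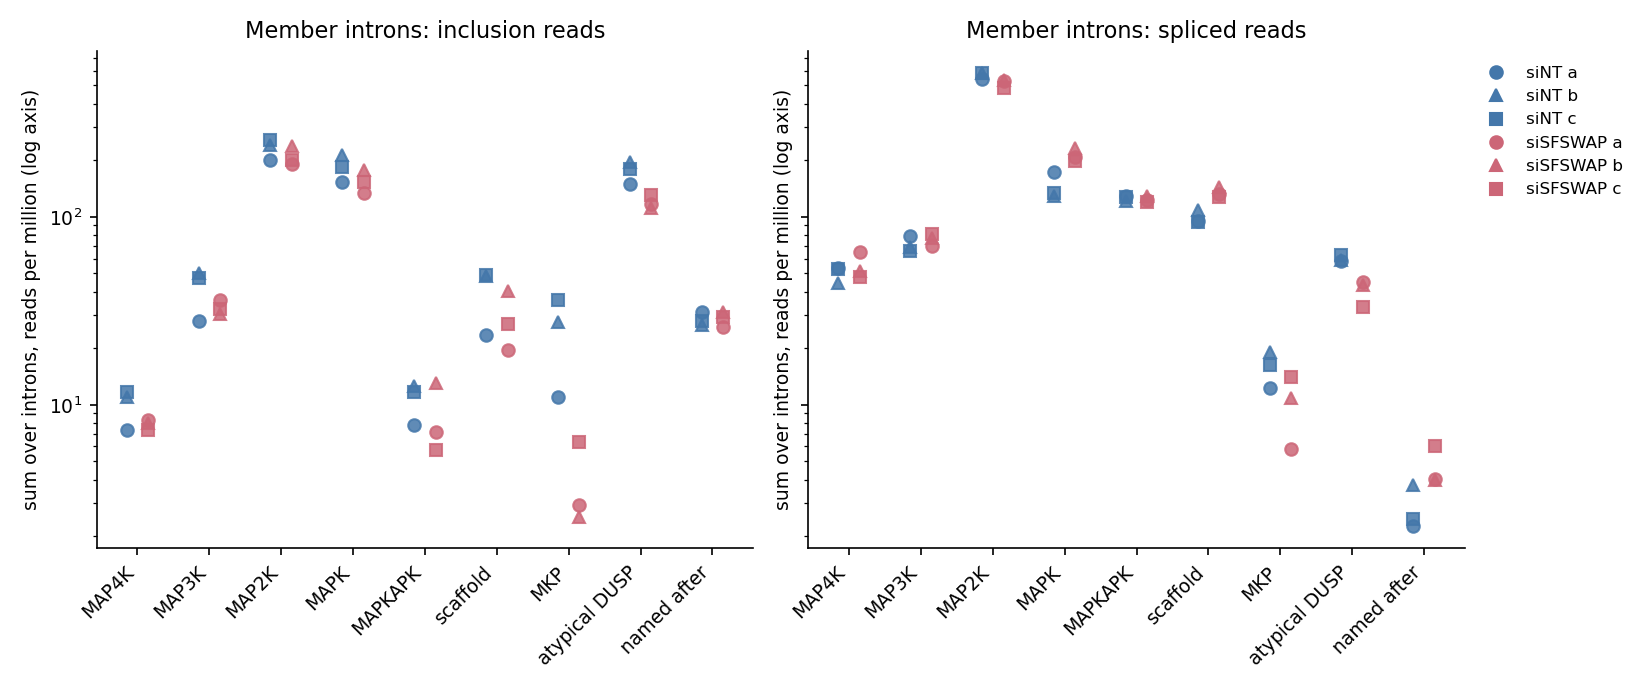
Inclusion reads (left) and spliced reads (right) of member introns, summed by tier and given in RPM, scaled to the junction reads of the intron table (y axis, log scale), with 1 point per library, siNT in blue and siSFSWAP in red. Spliced reads lie higher in every siSFSWAP library for the MAPK and scaffold tiers, with most introns of the MAPK tier from MAPK12. The atypical DUSP sum of inclusion reads, lower in siSFSWAP, is carried by DUSP3 introns that count the same reads.

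The spliced reads summed over a gene's exons changed for 22 of 56 genes tested with a matching symbol, 11 higher and 11 lower. Each sum counts inclusion and skipping junction reads together, so it can move with exon inclusion as well as with the level of the gene. Forms of an exon with different ends enter the sum separately, and reads that they share are counted more than once. Among all 10775 genes tested, 14.7% were higher and 15.6% lower. The members' share of 19.6% in each direction is to be read against that background, as are the counts by tier below. The median log2 change was −0.06 over the members and −0.00 over all genes. The number of members called was 31 without siNT a, 13 without siNT b, 13 without siNT c, 18 without siSFSWAP a, 12 without siSFSWAP b and 15 without siSFSWAP c.

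Of 6 MKP genes tested 4 fell and 0 rose, and of 5 atypical DUSPs 3 fell and 1 rose. DUSP1, an immediate early MKP that acts on p38, JNK and ERK in the nucleus, was read at 30.0, 55.5 and 59.5 CPM in siNT and 15.1, 15.4 and 16.7 CPM in siSFSWAP (log2 change −1.53 ± 0.21 SE, adjusted p = 0.000721). DUSP5, a nuclear MKP specific to ERK, was at 5.26, 11.7 and 13.1 CPM in siNT and 3.96, 3.39 and 4.01 CPM in siSFSWAP (−1.20 ± 0.27 SE, adjusted p = 0.00694). In both genes siNT a lay between the other siNT libraries and siSFSWAP, and without siNT a the log2 changes were −1.84 and −1.59. DUSP8 fell by 0.75 on the log2 scale and DUSP16, an MKP for JNK, by 0.50 (adjusted p = 0.0282 and 0.0253), although siSFSWAP c and siNT a overlapped for DUSP8. The calls of both were lost without siNT c or siSFSWAP a, that of DUSP8 also without siNT b or siSFSWAP b and that of DUSP16 without siSFSWAP c, with log2 changes of −0.98 to −0.51 and −0.61 to −0.38. DUSP4, another nuclear MKP, was at 3.59 ± 1.08 CPM in siNT and 2.48 ± 0.304 CPM in siSFSWAP (adjusted p = 0.158), and its log2 change was −0.65 without siNT a (adjusted p = 0.0138) and −0.25 without siNT c (adjusted p = 0.478). DUSP9, an MKP that prefers ERK, was at 5.77 ± 1.04 CPM in siNT and 8.18 ± 1.34 CPM in siSFSWAP (log2 change 0.47 ± 0.18 SE, adjusted p = 0.0622), with every siSFSWAP library above every siNT library. DUSP1 and DUSP4 rest on 1 exon each, and DUSP6 was not in the table.

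DUSP3, DUSP12 and DUSP11 fell by 0.60, 0.56 and 0.38 on the log2 scale. The DUSP12 call held in all 6 cases with a library left out. The calls of DUSP3 and DUSP11 were lost without siNT b, siNT c or siSFSWAP b, that of DUSP3 also without siSFSWAP a and that of DUSP11 without siSFSWAP c, with log2 changes of −0.79 to −0.48 and −0.42 to −0.34. DUSP12 was at 21.9, 24.0 and 23.7 CPM in siNT and 16.6, 16.03 and 14.1 CPM in siSFSWAP (adjusted p = 0.00531). DUSP18 rose from 0.992 ± 0.235 to 1.89 ± 0.389 CPM (SD, n = 3, adjusted p = 0.0337), at a low level, and its call was lost without siNT b or any of the 3 siSFSWAP libraries (log2 change 0.55 to 0.81).

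Of 6 MAP2K genes tested 2 fell and 0 rose. MAP2K3, the MKK3 gene of the p38 branch, was at 81.5, 147 and 156 CPM in siNT and 60.6, 73.9 and 70.3 CPM in siSFSWAP (log2 change −0.85 ± 0.20 SE, adjusted p = 0.00799). MAP2K1, the MEK1 gene of the ERK branch, was at 110, 165 and 182 CPM in siNT and 99.1, 103 and 101.3 CPM in siSFSWAP (−0.55 ± 0.15 SE, adjusted p = 0.0163). In siNT a both lay nearer to siSFSWAP than in siNT b and c, and without siNT a the log2 changes were −1.15 and −0.77. The MAP2K1 call was lost when any of the other 5 libraries was left out, with log2 changes down to −0.41 and adjusted p up to 0.0717. MAP2K2, the MEK2 gene and the member with most spliced reads of this tier, was at 392 ± 18.7 CPM and 376 ± 36.5 CPM (adjusted p = 0.594), and MAP2K7 at 79.5 ± 1.95 and 89.8 ± 5.06 CPM (adjusted p = 0.147).

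Of 10 MAP kinase genes tested 4 rose and 1 fell, against 14.7% higher and 15.6% lower among all genes tested. MAPK12 was read at 32.4, 28.1 and 26.7 CPM in siNT and 41.5, 47.6 and 42.5 CPM in siSFSWAP (log2 change 0.59 ± 0.11 SE, adjusted p = 0.00341), a rise that was not past the test when only its single most read event was used. MAPK13, the p38δ gene, rose by 0.70 on the log2 scale, MAPK3 by 0.52 and MAPK7, the ERK5 gene, by 0.47 (adjusted p = 0.0335, 0.0154 and 0.0235). These calls were lost without siNT b, siSFSWAP b or siSFSWAP c, and those of MAPK13 and MAPK3 also without siNT c. In the 6 cases the log2 changes were 0.57 to 0.94 for MAPK13, 0.41 to 0.70 for MAPK3 and 0.38 to 0.56 for MAPK7. MAPK6, the gene of the atypical kinase ERK3, fell from 16.1 ± 0.87 to 10.8 ± 1.01 CPM (SD, n = 3, adjusted p = 0.00787), and GENCODE lists 6 pseudogenes named after it. The JNK genes MAPK8 and MAPK9 (46.9 ± 3.07 and 45.1 ± 0.63 CPM, 64.0 ± 3.62 and 57.8 ± 3.02 CPM) and MAPK14 (35.1 ± 3.63 and 33.2 ± 0.937 CPM) did not pass the test, with adjusted p of at least 0.255.

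The JNK scaffold genes taken by the symbol rule rose, whereas SPAG9 (JIP4), outside the rule, fell by 0.68 on the log2 scale. MAPK8IP1, MAPK8IP2 and MAPK8IP3 encode JIP1 to JIP3, which hold JNK and its kinases in 1 complex. MAPK8IP2 was read at 7.57, 9.11 and 7.89 CPM in siNT and 11.8, 12.5 and 14.6 CPM in siSFSWAP (log2 change 0.63 ± 0.14 SE, adjusted p = 0.00729). MAPK8IP1 rose by 0.58 (adjusted p = 0.0055) and MAPK8IP3 by 0.47 (adjusted p = 0.0166) on the log2 scale, and in all 3 genes every siSFSWAP library lay above every siNT library. The MAPK8IP3 call was lost without siNT c or siSFSWAP b, with log2 changes of 0.35 to 0.55 in the 6 cases. MAPKAP1, which encodes the mTORC2 subunit SIN1 and takes its symbol from MAP kinase binding, fell from 170 ± 6.56 to 128 ± 13.6 CPM (SD, n = 3, adjusted p = 0.00722).

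Of 15 MAP3K genes tested 3 rose and 0 fell, against 14.7% higher and 15.6% lower among all genes tested. MAP3K6, the ASK2 gene, had the largest rise, from 1.94, 1.46 and 1.21 CPM in siNT to 4.71, 5.50 and 4.21 CPM in siSFSWAP (log2 change 1.39 ± 0.20 SE, adjusted p = 0.000831). MAP3K15, the ASK3 gene, was at 15.2, 12.3 and 9.48 CPM in siNT and 24.97, 25.4 and 23.0 CPM in siSFSWAP (0.98 ± 0.16 SE, adjusted p = 0.00155), and MAP3K21 rose by 0.36 (adjusted p = 0.0224), a call lost without siNT b, siNT c, siSFSWAP b or siSFSWAP c (log2 change 0.31 to 0.40). Both ASK genes kept their groups apart. MAP3K8 was at 5.79 ± 1.77 and 9.30 ± 3.16 CPM (adjusted p = 0.08). None of the 4 MAP4K and 3 MAPKAPK genes tested passed the test. MAP4K4 was at 153 ± 9.27 and 173 ± 4.2 CPM (adjusted p = 0.103), with every siSFSWAP library above every siNT library, and passed without siNT a (adjusted p = 0.0141) but in none of the other 5 cases (adjusted p up to 0.332). MAPKAPK5 was at 136 ± 10.4 and 137 ± 6.55 CPM (adjusted p = 0.94).

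**Figure D5:**
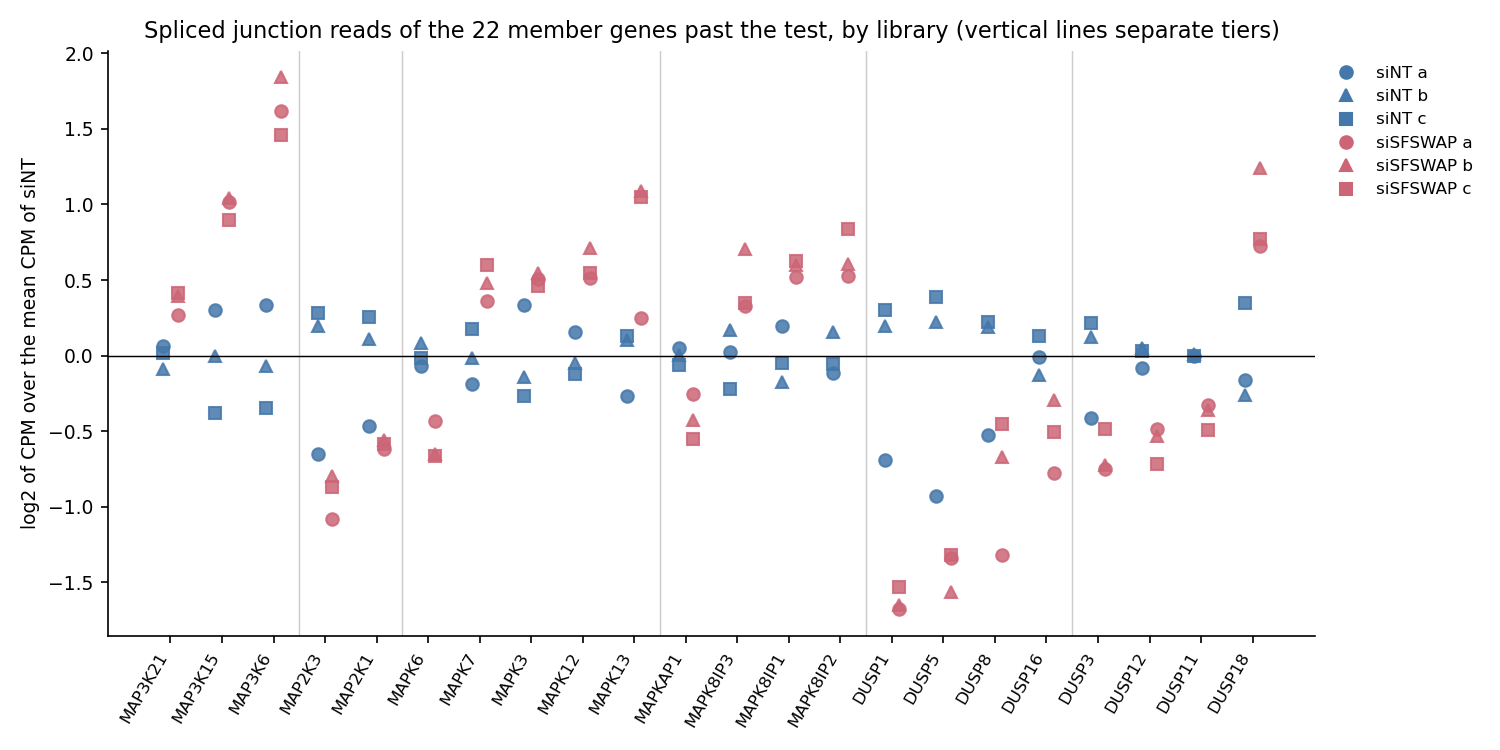
Spliced junction reads of the 22 member genes past the test, as log2 of each library's CPM over the mean CPM of siNT (y axis), with genes grouped by tier between vertical lines, siNT in blue and siSFSWAP in red. The siSFSWAP points lie highest for MAP3K6 and lowest for DUSP1, and siNT a (blue circles) lies toward siSFSWAP for DUSP1, DUSP5, MAP2K3 and MAP2K1.

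Genes of the pathway outside the symbol rule were called in both directions. Among all genes tested, 14.7% were higher and 15.6% lower, and the counts of each list are to be read against these shares. Of 20 tested genes of RAS and RAF activation 5 fell and 1 rose, among them RAP1B (−0.53) and GRB2 (−0.41) on the log2 scale, and of 11 inhibitors of RAS and RAF 2 rose and 1 fell. Of 21 genes listed as acting on the stress kinases 2 fell and 0 rose, TXN (−0.32), which encodes thioredoxin, an inhibitor of the MAP3K ASK1, and GADD45B. GADD45B, which binds MAP3K4 and MAP2K7, was at 98.0, 351 and 427 CPM in siNT and 53.5, 58.3 and 74.2 CPM in siSFSWAP (adjusted p = 0.00426). Of 16 scaffolds outside the rule 3 rose and 4 fell, with SPAG9 (JIP4) at −0.68 and MAPKBP1 at 1.01. Of 22 substrates 4 rose and 4 fell, and of 8 other phosphatases 1 fell. Of 14 listed AP-1 and immediate early genes only 4 had exon events and could be tested, so most of that list was not read. Of these 4 genes 3 fell, FOSL1 from 59.0, 236 and 252 CPM in siNT to 15.2, 16.6 and 37.6 CPM in siSFSWAP, FOSL2 by 1.35 and ATF3 by 0.92 on the log2 scale. In FOSL1 and GADD45B, as in DUSP1 and DUSP5, siNT a lay nearest to siSFSWAP among the siNT libraries.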

How the data were processed

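Polyadenylated RNA of 3 siNT and 3 siSFSWAP cultures was compared. Per the submitters' processing notes, the authors used cutadapt 1.9.1 for trimming, STAR 2.7 for alignment (GRCh38) and rMATS for splicing. The deposited tables hold, for each event, whole-number counts of junction reads of both forms and their effective lengths, which were used, and inclusion levels, their differences, p-values and FDR by the authors, which were not. The sources used here do not state strandedness. The tables number the groups, and siNT was identified from the paper's definition of the difference and checked on SFSWAP. Count columns list 3 libraries without replicate numbers.

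Inclusion was recomputed from counts and effective lengths. Events with a mean of at least 20 reads, 5 reads of each form and reads in at least 2 libraries per group were compared by a quasi-binomial F test (two-sided), its dispersion moderated by limma 3.58.1 with a floor of 1, and adjusted by Benjamini-Hochberg within each table. Gene levels were junction reads of the exon table, summed over 1 event per exon, as CPM. Forms of an exon with different ends counted as separate exons, so reads that they share entered the sum more than once. Gene and intron-form levels were tested with limma on log2(CPM + 0.5), so changes of low genes are understated. Scripts were tested on simulated data. Annotation was from GENCODE 44. Named items were every call, the largest change per tier and table at 50 reads or more, up to 10 genes per direction past the test, the most read gene per tier and a fixed list (MAP3K7, MAPK8, MAPK9, MAPK10, MAPK14, MAP2K7, MAP4K4, DUSP1, DUSP4, DUSP5, DUSP6, SFSWAP). Others were named after their values were seen. Members and lists were chosen with earlier results of these data known.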

Additional observations from a re-analysis of the deposited data

How the results depend on the processing

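Of 662 values of 60 named results under other settings, 551 kept their direction and side of the threshold, 90 fell short of it, 7 passed it and 14 changed sign. Main counts were 3 introns lower, 5 exon events lower and 4 higher, 11 genes higher and 11 lower, and inclusion reads of 3 introns lower. With limma on log2 odds, 0 introns and 0 exon events were lower and 2 exon events higher. With a mean of at least 50 reads, 1 intron and 2 exon events were lower and 0 exon events higher. With 1 event per exon, 2 exon events were higher, and with limma-voom 0 introns had lower inclusion reads. Leaving out 1 library gave 0 to 8 introns lower, 1 to 5 exon events lower, 1 to 6 exon events higher, 5 to 15 genes higher, 6 to 16 genes lower, 1 to 9 introns with lower inclusion reads, and 4 to 10 introns with higher and 1 to 5 with lower spliced reads. The highest of these counts came without siNT a, except for exon events lower. The cause was not tested.

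Changes of sign were seen for results that were not past the test. With the single most read event per gene the log2 change was 0.10 for MAP3K7 and 0.015 for MAPK14. With 1 library left out, the change ran from −2.10 to 1.03 points for the MAP4K5 intron, −6.33 to 2.01 for the DUSP22 intron and −10.4 to 1.11 for the MAPKAPK5 exon, and the log2 gene change from −0.13 to 0.0044 for MAP2K2, −0.14 to 0.069 for MAP3K7, −0.14 to 0.0049 for MAPK14 and −0.054 to 0.050 for MAPKAPK5. No paired analysis was possible because the deposited columns carry no replicate numbers. Depth limited the tests most where 1 form was rare, as in the 24 introns and 305 exon events that were not tested.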

Other observations

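Besides events described above, 5 members had differences of 20 points or more that did not pass the test, each from a mean of at most 30.5 reads per library. The 132-nt coding exon 9 of MAP4K2 was included at 48.0% ± 34.9 in siNT and 76.5% ± 7.23 in siSFSWAP (SD, n = 3, adjusted p = 0.526), and the 132-nt exon 13 of MAP3K3 at 71.0% ± 15.7 and 93.3% ± 11.5 (adjusted p = 0.274). Another event of MAP3K8 exon 2 was at 91.4% ± 7.56 and 64.9% ± 8.99 (adjusted p = 0.118), a 59-nt exon of MAPK12 that GENCODE 44 does not list at 29.1% ± 12.3 and 7.49% ± 3.02 (adjusted p = 0.155), and a 363-nt intron of MAP2K7 at 52.3% ± 14.7 and 72.7% ± 20.3 (adjusted p = 0.409). The groups did not overlap for the MAP4K2, MAP3K8 and MAPK12 exons. These items were chosen after their values were seen.

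HSPB1, a small heat shock protein phosphorylated through the p38 pathway, was read at 132, 64.2 and 49.6 CPM in siNT and 191, 169 and 180 CPM in siSFSWAP (log2 change 1.26 ± 0.26 SE, adjusted p = 0.00453). Among siNT libraries, siNT a was again nearest to siSFSWAP.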
